A study of Mus musculus with 6 samples.

Results

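The imprinted genes of the mouse were examined in RNA of whole testis as a list of 40 gene symbols, each matched to 1 of the 53700 Ensembl identifiers counted. Of these, 15 are maternally expressed in the mouse in at least some tissue, 24 are paternally expressed for at least some transcript or tissue, and Gnas makes transcripts of both kinds. The study sequenced total RNA from testes of mice at postnatal day 45. It set 3 libraries of mice labelled wild type for Msl3 (WT) against 3 of mice labelled as conditional knockouts of a floxed Msl3 allele (cKO), and asked whether loss of this X-linked member of the male-specific lethal complex alters spermatogenesis. All 6 mice carry the strain label Msl3em1Forni/C57BL/6J, and the recombinase line, the cells it acts in and the deleted exons are not given in the sources used here. Each library is labelled a biological replicate.

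An imprinted gene is read mainly from the allele of 1 parent, because DNA methylation laid down in egg or sperm marks its control region. In the male germ line the inherited marks are erased and those of the paternal kind are laid anew before birth, at control regions such as those of H19 and Igf2, of the Dlk1 domain and of Rasgrf1. The testis therefore holds somatic cells with both parental marks beside germ cells with paternal marks. Gene counts carry no information on the parental allele, so only total levels are described. In whole tissue, fewer cells of a type and less RNA per cell cannot be told apart.

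Imprinted genes sit in clusters, and several share a start region or lie inside one another. The sequences of 4 start regions are shown, each of a gene whose scaled read counts lay apart between the groups. The region of Peg3 also serves Usp29, whose counts did not. Other genes with scaled counts that lay apart, such as Plagl1, are not shown. They come from the RefSeq promoter windows of build GRCm38.p6, cut to the bases before the start that no annotated exon covers, and are written 5′ to 3′ on the strand of the gene, with each CG dinucleotide, the site of DNA methylation, in capitals.
Peg3, chr7:6730432-6730577, minus strand, the whole gap of 146 bases between Peg3 and the divergent Usp29: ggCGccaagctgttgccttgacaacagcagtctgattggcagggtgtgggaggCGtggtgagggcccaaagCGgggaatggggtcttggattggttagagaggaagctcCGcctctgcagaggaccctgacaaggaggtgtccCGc
Igf2r, chr17:12769707-12769956, minus strand: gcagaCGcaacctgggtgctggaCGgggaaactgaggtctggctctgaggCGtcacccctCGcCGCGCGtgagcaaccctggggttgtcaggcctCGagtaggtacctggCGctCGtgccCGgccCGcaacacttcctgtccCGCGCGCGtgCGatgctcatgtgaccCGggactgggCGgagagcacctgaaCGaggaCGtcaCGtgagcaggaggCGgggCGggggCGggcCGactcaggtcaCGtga
Commd1, chr11:22982383-22982534, minus strand: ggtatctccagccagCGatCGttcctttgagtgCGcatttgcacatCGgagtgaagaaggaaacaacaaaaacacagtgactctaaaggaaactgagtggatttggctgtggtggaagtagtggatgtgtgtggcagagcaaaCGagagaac
Zrsr1, chr11:22971755-22972004, plus strand, inside Commd1: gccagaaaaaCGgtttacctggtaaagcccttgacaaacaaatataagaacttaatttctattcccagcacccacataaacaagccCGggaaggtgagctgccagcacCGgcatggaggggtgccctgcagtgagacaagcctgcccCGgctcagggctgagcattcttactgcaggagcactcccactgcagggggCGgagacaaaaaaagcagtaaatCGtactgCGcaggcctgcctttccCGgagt
The 250 bases before the start held 27 CG dinucleotides in Igf2r, 14 in the Commd1 window printed in part, 8 in Zrsr1 and 8 in Peg3. Of those of Commd1 5 are in the bases shown, and of those of Peg3 also 5. Over all 32851 windows of the same length the median was 6, and 92.1% of them held at least 1. Entries were found for 31 of the 40 genes, whose 47 windows had a median of 11.

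Depth was even, with 56991431 to 73766444 reads assigned to genes per library. The column of reads on the strand opposite to the gene held 96.0% to 96.2% of the reads of both strand columns and was used throughout. Msl3 itself had 942, 1226 and 990 reads in the WT libraries and 1170, 829 and 923 in the cKO libraries, so its gene count does not separate the labels and the groups are named by label only. The tissue label was borne out by its markers: the 10 genes of elongating spermatids summed to between 23306 and 27644 CPM, the read count scaled to a common library size, in a library. Of 6 epididymal markers 5 were too low to be tested, and the other, Cst8, is also made in testis. The libraries differed in their balance of long and short transcripts. The median deviation of the 5464 tested genes with at least 5659 exon bases (long genes) minus that of the 5469 with at most 1644 (short genes) was -0.033, -0.19 and -0.12 on the log2 scale in WT 1, 2 and 3, against 0.020, 0.19 and 0.09 in cKO 1, 2 and 3. The groups did not overlap in this measure, so values of the long members and of the factors below are also given after a loess correction for exon length and GC content, an alternative added once the data had been seen. The part of the length balance in any difference was not tested.

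No imprinted gene passed the test of cKO against WT. Of the 40 genes, 36 had enough reads to be tested, and 0 of them had an edgeR quasi-likelihood p under 0.05 after Benjamini-Hochberg adjustment over all 21902 genes tested, where the background was 0.0183% (4 genes). The lowest adjusted p was 0.276. Without adjustment 7 members were under 0.05. Those with higher scaled counts in cKO were the paternally expressed Peg3, Peg10 and Plagl1 and the maternally expressed Igf2r and Trappc9, 5 of 36 where the background was 7.33%. Those with lower counts were the maternally expressed Commd1 and Phlda2, 2 of 36 where the background was 6.54%. Phlda2 passed the filter only through the WT libraries, where it is high, and with at least 10 reads required in every library it was not tested and 1 lower member was left. Over both directions this is 19.4% of the 36, and the background was 13.9%. The groups did not overlap in 10 members, the 7 above and, with higher counts in cKO, Inpp5f, Zrsr1 and Slc38a4, which is 27.8% where the background was 18.9%. These counts cover only members that passed the filter on low counts. DESeq2, an alternative, called 2 of the 39 members it fitted, Peg10 and Commd1, where it called 193 of 36603 genes over all. It left the adjusted p undefined for 16 of the 39.

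The 7 members were set against the balance of long and short genes. All 5 with higher counts are long genes, of which the tested members include 14. Over all long genes 20.3% had an unadjusted p under 0.05 with higher counts in cKO and 1.76% with lower counts, and the median log2 fold change was 0.10. Commd1, with lower counts, is a long gene too. Among short genes the shares were 0.731% and 14.6% and the median was -0.12. In the fit corrected for length and GC, 6 of the 36 tested members had an unadjusted p under 0.05, 4 higher and 2 lower in cKO. The background over both directions was then 9.02%, and 0 members passed after adjustment. Of the 7 members only Trappc9 was no longer under 0.05. After the correction the 14 long members had log2 differences between -0.35 and 0.29. That of Grb10 went from 0.050 to -0.055, that of Usp29 from 0.057 to -0.090 and that of Gnas from 0.053 to -0.15, so these 3 changed sign. Ube3a went from 0.14 to 0.020, Rasgrf1 from 0.21 to 0.053, Inpp5f from 0.15 to 0.080, Sgce from -0.06 to -0.11 and Igf2 from -0.043 to -0.15.

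**Figure D1:**
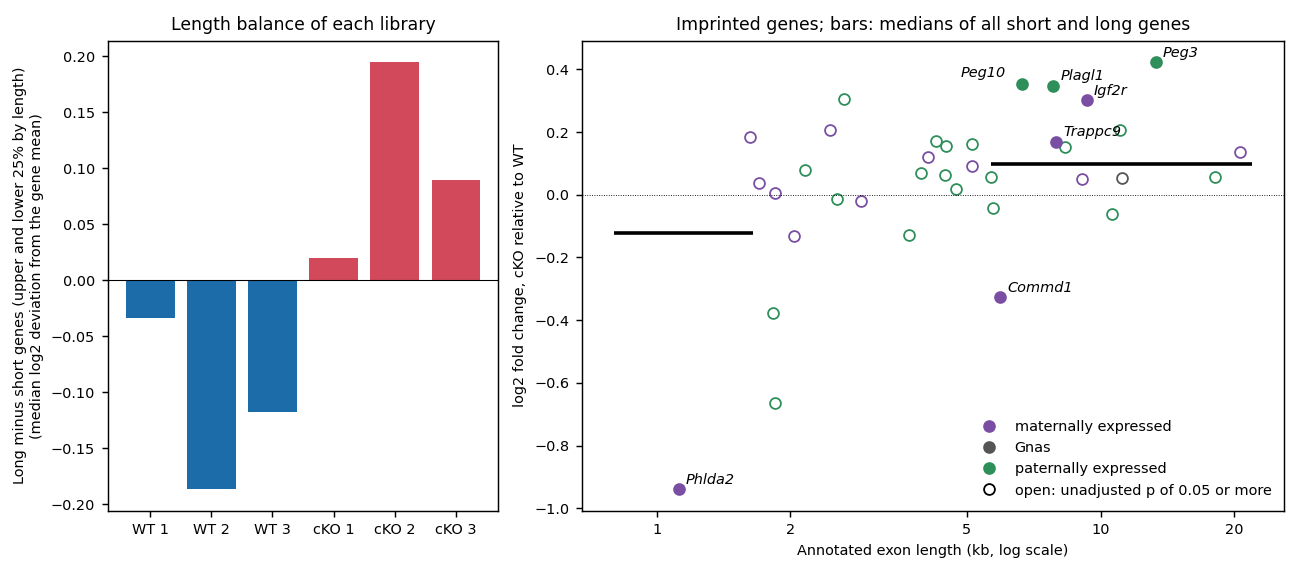
Left, the balance of long against short genes in each library, as the median log2 deviation of genes with at least 5659 exon bases minus that of genes with at most 1644. The 3 WT libraries lie below 0 and the 3 cKO libraries above it. Right, the log2 fold change of each tested imprinted gene against its annotated exon length, with filled points for an unadjusted p under 0.05 and black bars at the medians of all tested genes among short (-0.12) and long (0.10) genes. Peg3, Peg10, Plagl1, Igf2r and Trappc9 lie above the bar of the long genes, as do the open points of Rasgrf1, Inpp5f and Ube3a. Commd1 lies far below it.

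The median difference was 0.0709 on the log2 scale for the 14 maternally expressed genes tested and 0.0697 for the 21 paternally expressed ones, against 0.00311 over all genes tested. The maternal fold changes ran from -0.94 to 0.30 and the paternal ones from -0.66 to 0.42. After the length and GC correction the medians were 0.0251 (maternal) and 0.0527 (paternal). Without WT replicate 2 they were -0.0276 and 0.12, and without cKO replicate 2 they were 0.0598 and 0.14. The 2 medians were thus nearly equal in the main fit, and the paternal one was the higher in these other settings. The maternal one was the higher with at least 10 reads required in every library, at 0.0833 (13 genes) against 0.0654 (20 genes).

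**Figure D2:**
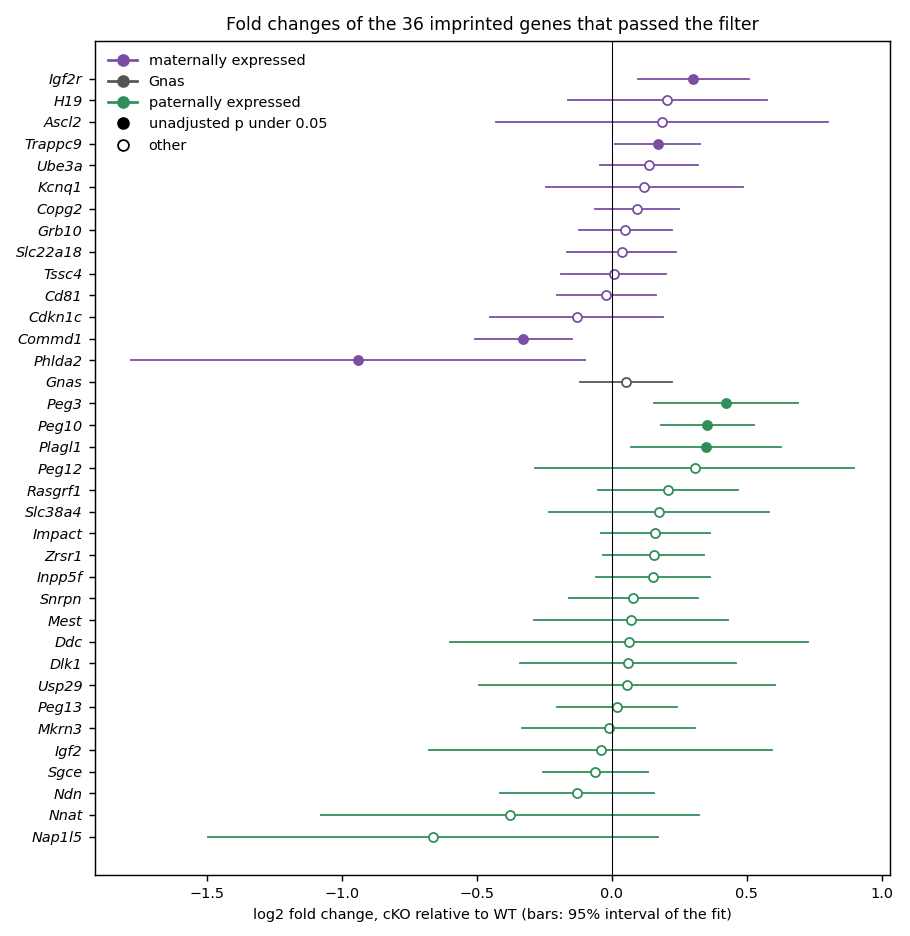
Log2 fold change of cKO relative to WT for the 36 imprinted genes that passed the filter, with 95% intervals of the edgeR fit, grouped into maternally expressed genes, Gnas and paternally expressed genes. Filled points mark the 7 genes with an unadjusted p under 0.05, and none of the 36 passed after adjustment over all genes.

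Levels of these genes in the testis spanned a wide range, compared here per length as CPM per kilobase of annotated exon (RPKM). The 10 highest were 8 maternally expressed genes, Gnas and the single paternally expressed gene Peg10. Copg2, a subunit of the vesicle coat of the secretory pathway, led with 24.7 RPKM, above 87.8% of tested genes, followed by the tetraspanin Cd81 at 23.9. Gnas, the stimulatory G protein subunit, had 15.8, Trappc9, a subunit of a membrane trafficking complex, 11.3, and Peg10, a gene derived from a retrotransposon and needed for the placenta, 11.0. Tssc4, Slc22a18, Cdkn1c, Commd1 and Ube3a had 7.89, 7.38, 7.24, 5.86 and 5.04 RPKM. The median was 5.45 RPKM over the 14 maternally expressed genes tested and 0.682 over the 21 paternally expressed ones, against 2.41 over all genes tested, and a level of at least 1 RPKM was reached by 10 and 6 of them. The annotated exons of a gene include exons that testis transcripts may not use, which lowers this value for genes with many isoforms such as Ube3a.

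**Figure D3:**
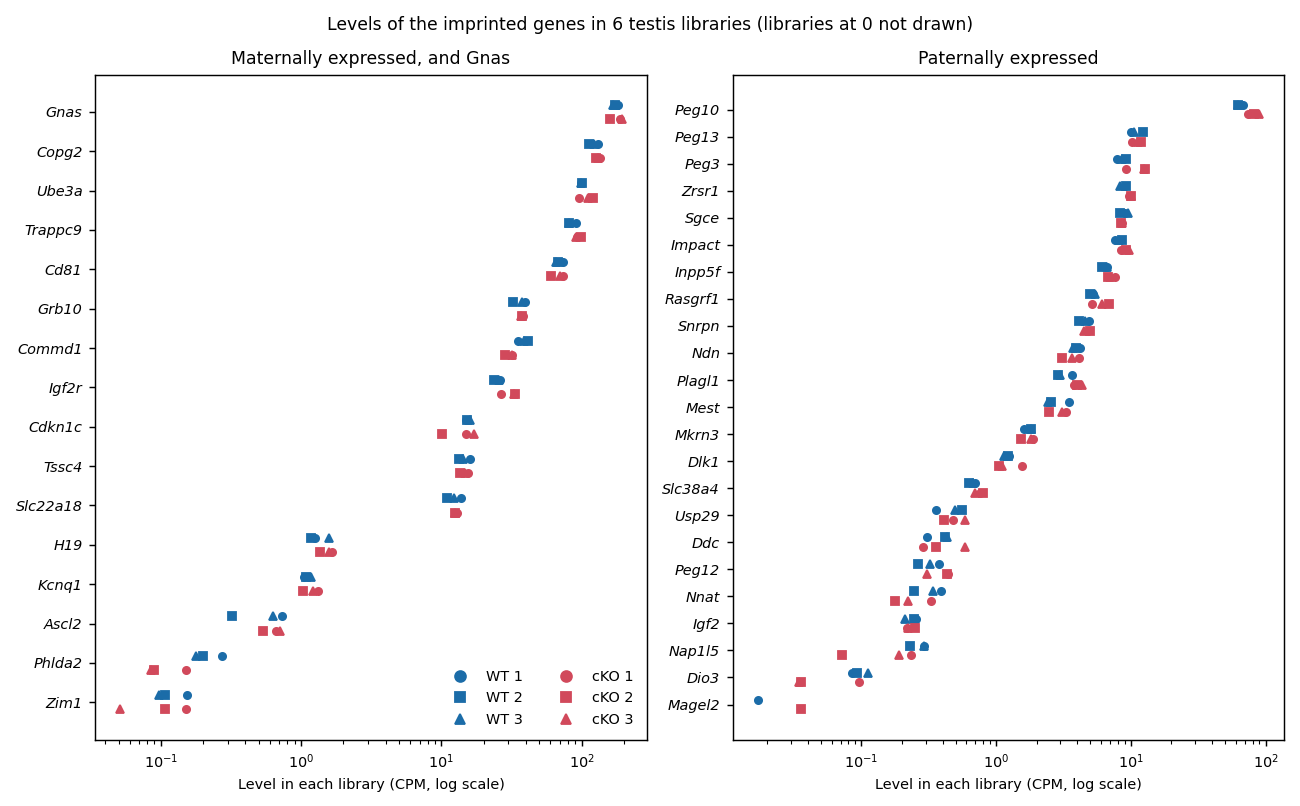
Level of each imprinted gene in each of the 6 libraries, in CPM on a log scale that is not corrected for gene length, with WT in blue, cKO in red and one marker shape per replicate number. Most genes have WT and cKO points that interleave. Peg10 and Igf2r lie to the right in cKO and Commd1 to the left, each without overlap, and Rtl1 is left out because it had no read in any library.

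Peg10 gave the clearest difference among the paternally expressed genes. It lies on chromosome 6 (4747306 to 4760517, mm10), 98 bases from the divergent Sgce, which codes for a sarcoglycan of the cell membrane and is also paternally expressed. Peg10 had 3962, 4072 and 3872 reads in the WT libraries and 5422, 4565 and 5244 in the cKO libraries. Every cKO library was above every WT library also in CPM, at 81.9 ± 7.74 CPM (SD, n = 3) against 64.1 ± 2.83 CPM (SD, n = 3). On the log2 scale cKO exceeded WT by 0.35 (SE 0.079; edgeR adjusted p 0.276). DESeq2 gave it an adjusted p of 0.018, and edgeR gave 0.013 without cKO replicate 1. The adjusted p of Peg10 ranged from 0.00379 to 0.73 over all alternatives, and its log2 fold change after the length and GC correction was 0.29. Sgce, in contrast, had 531, 539 and 590 reads in WT and 625, 475 and 505 in cKO, at 8.94 ± 0.598 CPM (SD, n = 3) and 8.57 ± 0.0791 CPM (SD, n = 3). Its log2 fold change of -0.06 had a 95% interval from -0.26 to 0.13, which does not reach the value of Peg10. The ratio of Peg10 reads to Sgce reads, which does not depend on library scaling, was 7.46, 7.55 and 6.56 in the WT libraries and 8.68, 9.61 and 10.4 in the cKO libraries. No test was made of such ratios.

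Peg3, a zinc finger gene of the paternally expressed kind on chromosome 7 (6703892 to 6730431), shares the start region printed above with Usp29, a member of the ubiquitin-specific proteases. Peg3 had 463, 595 and 534 reads in WT and 676, 709 and 732 in cKO. In CPM this made 8.55 ± 0.648 (SD, n = 3) for WT and 11.5 ± 1.93 (SD, n = 3) for cKO, where the libraries cKO 2 and 3, at 12.7 and 12.5 CPM, stood above cKO 1, at 9.27, and cKO 1 was just above the highest WT library, at 9.17. The difference was 0.42 on the log2 scale (SE 0.12). Its edgeR adjusted p was 0.288, or 0.0136 without cKO replicate 1, and ran from 0.0106 to 0.73 over all alternatives. After the length and GC correction it was 0.27. Usp29 had only 21, 36 and 31 reads in WT and 35, 23 and 34 in cKO, with overlapping libraries and a 95% interval from -0.49 to 0.60. Zim1, the maternally expressed zinc finger gene of the same cluster, had 3 to 11 reads per library and was not tested.

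Igf2r, the maternally expressed receptor that clears the growth factor Igf2, lies on chromosome 17 (12682406 to 12769664) and had 1534, 1533 and 1599 reads in WT and 1936, 1886 and 1916 in cKO. In CPM the WT libraries were at 25.1 ± 1.33 (SD, n = 3) and the cKO libraries at 31.0 ± 3.90 (SD, n = 3). As with Peg3, the libraries cKO 2 and 3 (33.7 and 32.8 CPM) carried the difference, and cKO 1 (26.5) was close to the highest WT library (26.1). The groups differed by 0.30 on the log2 scale (SE 0.094). The edgeR adjusted p of 0.288 became 0.0209 without cKO replicate 1 and ran from that value to 0.73 over the alternatives. The difference was 0.17 after the length and GC correction. The ligand Igf2 had 15, 16 and 13 reads in WT and 16, 14 and 13 in cKO, a level of 0.0409 RPKM. Another annotated gene, Gm49394, covers 62.8% of its exon bases on the same strand, so reads that fall in both were not counted for it. H19, the noncoding RNA that is maternally expressed from the same domain, had 74, 76 and 98 reads in WT and 122, 76 and 92 in cKO, at 0.583 RPKM. The libraries of both genes overlapped, and the 95% interval of H19 ran from -0.16 to 0.57.

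Commd1 differed in the other direction. This maternally expressed gene, which acts in copper handling and protein turnover, lies on chromosome 11 (22896136 to 22982382). The paternally expressed retrogene Zrsr1, of a family of splicing factors, lies inside Commd1 on the opposite strand (22972005 to 22976496), with the start region printed above. Commd1 had 2084, 2710 and 2417 reads in WT and 2335, 1589 and 1874 in cKO, at 38.7 ± 3.16 CPM (SD, n = 3) and 30.8 ± 2.11 CPM (SD, n = 3), and every cKO library was below every WT library. On the log2 scale the difference was -0.33 (SE 0.082), and its adjusted p was 0.276 by edgeR and 0.0407 by DESeq2. Over the alternatives its adjusted p ran from 0.00882 to 0.73. Its log2 difference was -0.35 after the length and GC correction.

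Zrsr1 had 535, 600 and 518 reads in WT and 711, 558 and 584 in cKO, at 8.89 ± 0.490 CPM (SD, n = 3) and 9.91 ± 0.139 CPM (SD, n = 3). The cKO libraries lay just above the WT libraries without overlap, with an edgeR adjusted p of 0.436 and a 95% interval from -0.03 to 0.34. The ratio of Zrsr1 to Commd1 reads was 0.257, 0.221 and 0.214 in WT and 0.304, 0.351 and 0.312 in cKO. Since Zrsr1 lay higher and Commd1 lower in every cKO library, this ratio had to lie apart and adds nothing to them. Apart from this pair and that of Peg10 and Sgce, the ratios of neighbouring pairs overlapped between the groups. Reads over the exon of Zrsr1 from the strand on which Commd1 lies were counted separately in the files. They numbered 512, 746 and 629 in WT and 582, 405 and 482 in cKO, or 10.1 ± 1.39 CPM (SD, n = 3) and 7.82 ± 0.525 CPM (SD, n = 3), with every cKO library below every WT library. The genes share 412 of the 4492 exon bases of Zrsr1, reads in those bases can be counted for Commd1 too, and the transcript that gave the other reads was not determined.

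A second nested pair is Trappc9, maternally expressed in brain, and Peg13, a paternally expressed noncoding RNA inside it on the same strand, both on chromosome 15. Trappc9 had 5347, 5245 and 5028 reads in WT and 6825, 5553 and 5334 in cKO, at 84.2 ± 5.83 CPM (SD, n = 3) and 94.7 ± 4.08 CPM (SD, n = 3). The highest WT library, at 91.0 CPM, almost reached the lowest cKO library, at 91.3. The log2 difference of 0.17 (SE 0.072; edgeR adjusted p 0.334) became 0.030 after the length and GC correction. Peg13 had 584, 802 and 655 reads in WT and 742, 661 and 663 in cKO, with overlapping libraries and a 95% interval from -0.20 to 0.24.

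**Figure D4:**
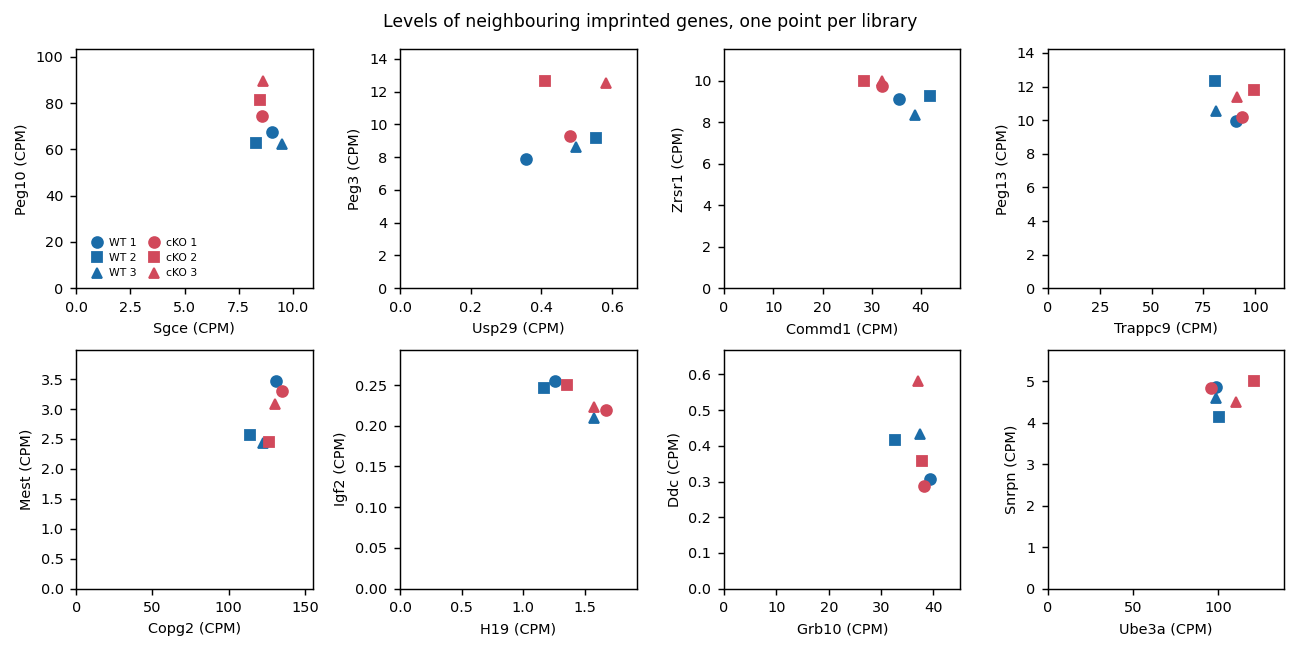
Levels of 8 pairs of neighbouring imprinted genes in CPM, 1 point per library, with axes from 0. For Peg10 and Sgce the cKO points lie above the WT points at a similar level of Sgce, and for Zrsr1 and Commd1 they lie to the left. Peg3 and Trappc9 also lie higher in cKO on their own axis, while their partners Usp29 and Peg13 overlap. In the remaining pairs WT and cKO points overlap on both axes.

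The Kcnq1 domain on chromosome 7 holds 7 of the maternally expressed members, and 6 of them had overlapping libraries. Cdkn1c, an inhibitor of the cell cycle, had 882, 995 and 994 reads in WT and 1087, 568 and 1005 in cKO. The library cKO 2 was the lowest of the 6, at 10.2 CPM against 14.9 to 17.2 in the others, and the 95% interval of the log2 fold change ran from -0.45 to 0.19. Slc22a18, of a family of membrane transporters, had 807, 716 and 769 reads in WT and 950, 704 and 727 in cKO. Tssc4 had 938, 872 and 881 against 1125, 765 and 855, and Cd81 had 4331, 4442 and 4104 against 5403, 3382 and 4126. Their 95% intervals were -0.17 to 0.24 for Slc22a18, -0.19 to 0.20 for Tssc4 and -0.20 to 0.16 for Cd81. The potassium channel gene Kcnq1 was low, at 0.281 RPKM, with 62, 70 and 73 reads in WT and 97, 58 and 71 in cKO. Ascl2, a transcription factor of the trophoblast, had 43, 21 and 39 reads against 48, 30 and 41. Phlda2, which restrains placental growth, was the exception in this domain, with 16, 13 and 11 reads in WT and 11, 5 and 5 in cKO. Its log2 fold change of -0.94 (SE 0.39, edgeR adjusted p 0.323) rests on few reads, and DESeq2 left its adjusted p undefined.

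In the domain of the Prader-Willi and Angelman genes on chromosome 7, the 6 members had overlapping libraries where they were detected. The ubiquitin ligase Ube3a, maternally expressed in neurons, had 5781, 6519 and 6110 reads in WT and 6978, 6750 and 6455 in cKO. Its WT libraries were close together, at 99.0 ± 1.23 CPM (SD, n = 3), and the cKO libraries lay on both sides of them, at 109 ± 12.6 CPM (SD, n = 3). Snrpn, a small ribonucleoprotein gene, had 286, 268 and 286 reads in WT and 353, 280 and 263 in cKO. Gm38393 and Snurf share exon bases with it on the same strand, where reads were counted for none of them, and Snurf had 0 reads in every library. Ndn, of the melanoma antigen family, had 247, 256 and 230 reads against 300, 171 and 212, and Mkrn3, a ring finger gene, had 94, 118 and 113 against 136, 85 and 105. Peg12 had 17 to 32 reads per library. Magel2, a relative of Ndn, had 1 read in WT 1, 2 in cKO 2 and 0 in the other libraries.

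Among the remaining pairs, Mest and Copg2 on chromosome 6 overlap tail to tail in 912 exon bases. Copg2 had 7711, 7375 and 7627 reads in WT and 9836, 7090 and 7604 in cKO, at 123 ± 8.77 and 131 ± 4.07 CPM (SD, n = 3 each). Mest, a hydrolase gene that is paternally expressed and abundant in embryonic mesoderm, had 204, 166 and 151 reads against 241, 137 and 180, or 0.731 RPKM. On chromosome 11 Grb10, an adaptor that dampens insulin signalling, had 2308, 2115 and 2321 reads in WT and 2782, 2115 and 2165 in cKO, with a 95% interval from -0.12 to 0.22. Its neighbour Ddc, the decarboxylase that makes dopamine, had 18 to 34 reads per library. Of the paternally expressed genes of the Dlk1 domain on chromosome 12, Dlk1, a ligand of the Notch family, had 73, 79 and 71 reads in WT and 113, 59 and 65 in cKO. Dio3, which inactivates thyroid hormone, had 2 to 7 reads. Rtl1 had 0 reads in each of the 6 libraries, which allows a level of up to 0.0411 to 0.0536 CPM by counting error alone (3 reads per library).

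Of the 8 members not described so far, Plagl1 was the only one with an unadjusted p under 0.05. This zinc finger gene on chromosome 10, paternally expressed, had 214, 186 and 186 reads in WT and 275, 224 and 252 in cKO, at 3.17 ± 0.415 CPM (SD, n = 3) and 4.03 ± 0.274 CPM (SD, n = 3). The lowest cKO library, at 3.77 CPM, was close to the highest WT library, at 3.64. This difference of 0.35 on the log2 scale (SE 0.13; edgeR adjusted p 0.306) became 0.28 after the length and GC correction. Gnas had 10655, 11152 and 10466 reads in WT and 13610, 8995 and 11302 in cKO, with WT libraries inside the range of the cKO libraries. The intervals were -0.12 to 0.22 for Gnas, -0.04 to 0.36 for Impact, a regulator of translation, and -0.05 to 0.47 for Rasgrf1, an activator of Ras. Impact had 451 to 621 reads per library and Rasgrf1 307 to 382. The inositol phosphatase gene Inpp5f (380 to 556 reads) and the amino acid transporter gene Slc38a4 (41 to 55 reads) overlapped in reads but lay higher in cKO without overlap in CPM, with edgeR adjusted p of 0.499 and 0.718. Nnat, which codes for the membrane protein neuronatin, and Nap1l5, a relative of nucleosome assembly genes, had 10 to 24 and 4 to 18 reads per library, the lowest in both cases in cKO 2.

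The strand of the reads matters for these genes, since many overlap a transcript of the other strand. In 7 members more than 10% of the reads of both strand columns, and at least 50 reads, came from the other strand. The share was 79.3% at Usp29, whose exons overlap the antisense gene Zim3 in 2582 bases, 48.9% at Zrsr1, 46.1% at Mest, 41.8% at Nnat, 29.3% at Ddc, 20.04% at Kcnq1, which is crossed by Kcnq1ot1, and 13.6% at Inpp5f. At Usp29 the other strand gave 115, 95 and 93 reads in WT and 147, 119 and 120 in cKO, more than Usp29 itself in every library. Rtl1 had no read of its own and 1 to 3 reads per library from the other strand, where a cluster of microRNA genes lies. Peg10, Igf2r, Trappc9 and Sgce had at most 0.173% of reads from the other strand.

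Factors that lay down or keep imprints were compared as a list of 28 genes, of which 27 were tested. None passed after adjustment over all genes (lowest edgeR adjusted p 0.276). At an unadjusted p under 0.05 there were 8 with higher counts in cKO, against a background of 7.33%, and 0 with lower counts, and the median log2 fold change was 0.15. Dnmt3a, the methyltransferase that sets imprints in the male germ line, was at 17.3 ± 0.585 CPM (SD, n = 3) in WT and 21.4 ± 1.14 CPM (SD, n = 3) in cKO. The libraries did not overlap, and the log2 difference was 0.30 (SE 0.076). Setd2, Smchd1 and Kdm5b, which act on histones and chromatin, had log2 fold changes of 0.30, 0.24 and 0.19, also without overlap. These 4 genes have 10754 to 19982 exon bases and so are long genes too. After the length and GC correction their log2 differences were 0.093 for Dnmt3a, 0.20 for Setd2, 0.075 for Smchd1 and 0.011 for Kdm5b. The median of the list was then 0.0821. In the corrected fit 2 of the 27, Setd2 and Arid4a, had an unadjusted p under 0.05, where the background over both directions was 9.02%. The most abundant, the corepressor Trim28 at 132 RPKM and the demethylase Kdm1a at 33.2, had log2 fold changes of 0.06 and 0.10.

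A further 36 imprinted genes outside the list were counted in the same way. Of the 28 tested, 0 passed after adjustment and 4 had an unadjusted p under 0.05, each with higher counts in cKO, with a median over the 28 of 0.03. The 4 are 14.3% of the 28, where the background was 13.9% over both directions and 7.33% for higher counts. Those 4 were Gab1, Ppp1r9a, Zim3 and Atp10a, with log2 fold changes of 0.22, 0.32, 0.33 and 0.25 and edgeR adjusted p from 0.288 to 0.31. Ppp1r9a, which codes for a protein of the actin skeleton, lies near Peg10 on chromosome 6, and its libraries overlapped, with 36.4 ± 1.43 CPM (SD, n = 3) in WT and 45.6 ± 7.36 CPM (SD, n = 3) in cKO, and a log2 difference of 0.17 after the correction. The most abundant per length were Gatm at 51.4 RPKM and Nap1l4 at 43.3 RPKM, with log2 fold changes of -0.0016 and -0.0074.

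Markers of the cells of the testis were compared because several members are known from somatic cells. The 10 Leydig markers summed to 931 to 1095 CPM in WT and 854 to 1094 in cKO, the 10 Sertoli markers to 1422 to 1722 and 1447 to 1884, and the 10 peritubular and stromal markers to 282 to 328 and 270 to 346, all overlapping. The 6 endothelial markers summed to 41.0 to 41.7 CPM in WT and 42.6 to 51.6 in cKO, without overlap. Vwf, a long gene, gave 21.4 CPM of this sum in WT, and its own libraries overlapped. Its log2 fold change went from 0.25 to -0.0048 after the length and GC correction. Those of Cdh5, Kdr and Tek went from 0.25, 0.27 and 0.16 to 0.22, 0.16 and 0.15. That of Pecam1 went from 0.072 to 0.0025 and that of Emcn from -0.15 to -0.14. Cdh5 and Tek lay higher in cKO without overlap. The 10 markers of round spermatids summed to 1872 to 1911 CPM in WT and 1669 to 1821 in cKO, also without overlap. With the correction the median log2 fold change went from 0.21 to 0.0759 for the endothelial markers and from -0.15 to -0.0947 for those of round spermatids. The 10 macrophage markers gave 414 to 427 and 388 to 417 CPM and the 10 spermatocyte markers 6687 to 6865 and 6440 to 6991 CPM, both overlapping. Most of the macrophage sum is Aif1, with 295 CPM in WT, and 9 of the 10 macrophage markers had a fold change below 0, with a median of -0.22. At an unadjusted p under 0.05, C1qa, C1qb, C1qc and Fcgr3 had lower and Mrc1 higher counts in cKO. Lower too were 4 of 10 round spermatid markers, 2 of 9 tested Leydig markers, Tnp1 of elongating spermatids, the peritubular Tagln and Cst8. Higher were 2 of 10 Sertoli markers, 2 of 6 endothelial markers and the peritubular Myh11. Of the 10 spermatocyte markers 0 were under 0.05. The background was 7.33% for higher and 6.54% for lower counts, and 14.6% for lower counts among short genes. None of the markers passed after adjustment. No whole list of markers was at 0, and the part of these cells in the differences of the imprinted genes was not tested.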

How the data were processed

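The authors deposited 1 table of read counts per library, in the layout of STAR gene counts, with unstranded, same-strand and opposite-strand counts and no normalisation. The submitters' processing notes name STAR, HTSeq, DESeq2 and mm10 without versions or roles, and the annotation release and strand protocol are not given in the sources used here. Lines for reads outside single genes held 14.8% to 16.7% of a library and were left out. Such counts use uniquely mapped reads, and the files have 53700 identifiers, of which 52147 matched GENCODE M21, used here for symbols, mm10 coordinates and exon lengths.

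Opposite-strand counts were tested in R 4.3.3 with edgeR 4.0.16: filterByExpr with a minimum count of 10, TMM scaling, the quasi-likelihood test on group alone with 3 libraries each, and p-values adjusted by Benjamini-Hochberg across 21902 genes (threshold 0.05). CPM use TMM-scaled library sizes. Standard errors come from the F statistic and 95% intervals from its degrees of freedom. Named were the members of neighbouring groups, the 10 with the highest RPKM, those with an unadjusted p under 0.05 and, per further list, the 4 with the lowest such p and the 2 most abundant. Members and lists were chosen with earlier results of these data known. Alternatives were RLE scaling, library totals, other filters, unstranded counts, a replicate block, robust fitting, DESeq2 1.42.0 and each library left out, with the loess correction (span 0.3) added. The procedure was tested on simulated data.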

Additional observations from a re-analysis of the deposited data

How the results depend on the processing

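The count of imprinted genes past the threshold was 0 of 36. It became 4 of 39 without a filter on low counts (Peg10, Peg3, Commd1 and Igf2r) and 2 of 39 with DESeq2 (Peg10 and Commd1). With each library left out it was 0 to 3 of 36, the 3 (Peg10, Peg3 and Igf2r) without cKO replicate 1. Over all genes the count of 4 of 21902 became 757 of 36605 without a filter, 2 of 22460 with unstranded counts and 193 of 36603 with DESeq2. With each library left out the count over all genes was 1 to 628, with 116 of 22392 without WT replicate 1 and 628 of 22255 without cKO replicate 1. It was 6 with RLE scaling (4 higher, 2 lower) and 3 with library totals (2 higher, 1 lower), against 2 higher and 2 lower. The cause was not tested. When each library was left out, the median of the maternally expressed genes ran from -0.0276 to 0.11 and that of the paternally expressed genes from 0.0802 to 0.14. The 7 genes with an unadjusted p under 0.05 kept their direction under every alternative that tested them. Their libraries did not overlap between the groups, so leaving out 1 library was not expected to reverse them. The other alternatives used the same libraries, so the kept direction is no separate support. With a replicate block 49 genes and 0 imprinted genes passed (lowest adjusted p of a member 0.0634). Deviations of same-numbered libraries from their group means correlated at 0.355, 0.263 and -0.0508 across genes, and those of differently numbered libraries at -0.35 to 0.108. The labels name no shared litter, batch or day, so the main fit treated replicate numbers as names only. Whether same-numbered libraries share such a factor was not tested. Members with fewer than about 20 reads per library, such as Phlda2 and Igf2, have wide intervals at this depth.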
